A study of Homo sapiens with 26 samples.

Results

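The genes of heme synthesis and iron handling were followed in TF-1 cells with and without TET2 and with and without 5-azacytidine. The set was 38 named genes, listed by symbol for their textbook roles, and 37 of them matched a row among the 57773 genes of the count table. They comprised 8 heme synthesis enzymes, 8 genes of mitochondrial transport and of the control of the first enzyme, 8 of heme export, binding and breakdown, 5 of iron uptake and export, 4 of iron storage and delivery, and 4 of iron sensing and iron-sulfur clusters. NCOA4, the receptor that delivers ferritin to lysosomes, was not analysed here. All 37 passed the filter on low counts in each of the 13 comparisons.

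TF-1 is an established human erythroleukemia line that needs the cytokine GM-CSF. Clones F4 and A12 lack the methylcytosine dioxygenase TET2 (KO, TET2 -/-), and clones A7 and C4 are wild-type (WT). Each clone received 3 daily doses of 5-azacytidine (Aza, 200 nM), a nucleoside that traps DNA methyltransferases and so lowers DNA methylation, or of DMSO, its solvent. RNA was taken before treatment, 72 h after the first dose and 264 h after it. The 25 libraries that passed quality control fall into 11 groups. For KO, 2 libraries are from Aza and 3 from DMSO at the early time, 2 from Aza and 4 from DMSO at the late time, and 2 from untreated cells. For WT, 2 libraries are from each of these conditions. The other 2 libraries, KO cells of batch 2, carry labels of both pre-treatment and DMSO and were kept as a group of their own. All WT and all Aza libraries belong to experimental batch 1, so for clone F4 the DMSO value at 72 h comes from batch 2 alone. Each genotype rests on 2 clones of a single line. TET2 RNA was present in both genotypes (log2 difference over clone sums 0.32, SE 0.13, adjusted p = 0.332) and gives no check of the genotype labels.

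Heme is built in steps that begin and end in mitochondria: ALAS joins glycine and succinyl-CoA, cytosolic enzymes assemble and trim the tetrapyrrole, and ferrochelatase inserts iron. Cells that make hemoglobin use the ALAS2 form of the first enzyme, take up iron through the transferrin receptor TFRC and import it into mitochondria through SLC25A37 (mitoferrin-1). Ferritin stores iron, ferroportin (SLC40A1) exports it, and heme oxygenase and biliverdin reductase break heme down. Iron regulatory proteins (ACO1 and IREB2) bind hairpins called iron-responsive elements in the messages of several of these genes, which adjusts translation or message stability to the iron supply.

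Iron-responsive elements tie the first enzyme, storage, export and uptake to iron supply, so the elements of 4 members are shown. They were found in GENCODE release 29 transcripts (GRCh38) by the loop CAGTGN between paired arms and an unpaired C, and capitals mark the loop. By this search ALAS2, FTL and SLC40A1 hold 1 each in the 5′ UTR and TFRC holds 4 in the 3′ UTR. Only members with a promoter window (next paragraph) were searched, so FTH1 was not. Elements that depart from this pattern would be missed, so the list is not complete.
ALAS2, 5′ UTR: tcgttcgtcctCAGTGCagggcaacag
FTL, 5′ UTR: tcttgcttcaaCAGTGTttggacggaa
SLC40A1, 5′ UTR: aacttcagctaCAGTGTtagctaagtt
TFRC, 3′ UTR, element 1: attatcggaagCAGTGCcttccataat
TFRC, 3′ UTR, element 2: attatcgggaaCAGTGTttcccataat
TFRC, 3′ UTR, element 3: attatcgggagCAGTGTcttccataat
TFRC, 3′ UTR, element 4: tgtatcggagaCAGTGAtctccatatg
The ALAS2, FTL and SLC40A1 elements share the loop CAGTG followed by C or T, and their arms differ. The 4 TFRC elements share tatcgg before the loop.

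Promoter windows from RefSeq (GRCh38.p14, 250 bases before to 50 after a gene start) were found for 31 member symbols, in 43 windows. The GATA motif AGATAA, read on both strands, was in 5 of the 43 windows (11.6%), those of ALAS2, CPOX, FLVCR2, PPOX and SLC11A2, and in 10.3% of all 35116 windows. The KLF1 box CCACACCC was in 2 (ABCG2 and PPOX; 4.65%, against 3.28% of all), and TGACNNNGC, the core read by BACH1 and NRF2 with small Maf proteins, in 7 (16.3%, against 13.3% of all). The median window held 26 CpG dinucleotides among members and 14 among all windows, and the ALAS2 window held 3. The 250 bases before the start of ALAS2 and of PPOX are shown because these enzymes had the largest log2 changes after Aza at 72 h. Capitals mark the motif letters, which read TTATCT for AGATAA, GGGTGTGG for CCACACCC and GCTGAGTCA for TGACNNNGC where they lie on the other strand.
ALAS2, chrX:55030978-55031227, minus strand: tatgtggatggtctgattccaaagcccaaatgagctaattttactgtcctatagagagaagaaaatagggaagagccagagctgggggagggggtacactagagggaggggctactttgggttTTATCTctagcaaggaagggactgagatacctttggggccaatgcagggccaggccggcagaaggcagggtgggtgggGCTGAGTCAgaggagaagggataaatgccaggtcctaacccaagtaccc
PPOX, chr1:161166396-161166645, plus strand: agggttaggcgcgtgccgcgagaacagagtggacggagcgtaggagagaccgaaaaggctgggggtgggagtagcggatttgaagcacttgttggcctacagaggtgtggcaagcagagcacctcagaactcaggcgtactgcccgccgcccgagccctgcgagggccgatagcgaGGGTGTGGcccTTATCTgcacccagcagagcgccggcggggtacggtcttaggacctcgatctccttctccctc
Windows of these genes were shown only where they held a GATA motif, so that motif is in both by choice. The other PPOX window (chr1:161166176-161166475) held 0 matches to each of the motifs. Of the pair shown, ALAS2 alone holds TGACNNNGC and PPOX alone CCACACCC. A match describes the letters of the window and not binding.

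A library held 24992192 to 40187322 counts, with a median of 27477937, so that 3 counts, the floor used here, stood at 0.0746 to 0.120 CPM (the depth-scaled count) on the raw library totals. All CPM given from here on use TMM library sizes. Of 10 TF-1 markers 9 averaged at least 1 CPM, and CSF2RA was at 0 in every library. Whether reads of CSF2RA could be counted was not tested, so the 0 is not read as absence of its RNA. Marker sums for epithelial cells and macrophages reached at most 0.793 CPM, those for B cells, stromal cells and hepatocytes at most 6.97 CPM, and T cell markers 61.5 CPM, through CD3D. The 2 WT libraries taken before treatment went against their clone labels: their deviations from the group mean correlated with those of later WT libraries of the same label at -0.523 to -0.478 across 3000 genes, whereas later WT libraries correlated at 0.451 to 0.516 and KO libraries at 0.55 to 0.611. Labels were kept as given, and counts of called genes that rest on those 2 libraries are given without them as well.

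Per transcript length, FTL, the ferritin light chain, stood highest among the 37 genes at 5173 ± 1147 TPM (the count scaled by exon length and depth; SD, n = 25 libraries). TFRC followed at 1137 ± 425 TPM, then the decarboxylase UROD at 838 ± 89.0 TPM and FTH1, the ferritin heavy chain, at 543 ± 108 TPM, and the range over libraries of each overlapped that of the next. ALAS1, the housekeeping first enzyme, averaged 103 ± 29.1 TPM and ALAS2, the erythroid one, 15.0 ± 18.1 TPM with a range of 1.91 to 74.8 TPM. At the low end were ABCG2, a heme and drug exporter, at 1.84 ± 0.708 TPM and ABCB6, a porphyrin transporter, at 1.83 ± 0.433 TPM, whose ranges overlapped. Of the ABCB6 exon bases 54.5% are shared with ATG9A and the counting used no strand, so its level is uncertain.

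To ask what Aza did to these genes, each genotype's Aza libraries were compared with its DMSO libraries at 72 h and at 264 h. A gene was called, and is said to have risen or fallen, at an adjusted p under 0.05 (edgeR's quasi-likelihood test, Benjamini-Hochberg over all genes tested). Whether Aza and DMSO libraries overlapped is given as description only, since groups of so few libraries can lie apart by chance. The share of all genes that did so was not computed. At 72 h in KO cells, 13 of 37 genes rose and 1 fell, where 11.6% of the 18391 genes tested rose and 8.47% fell. In WT cells 13 rose and 2 fell, where 9.26% of all genes rose and 9.04% fell. The genes that rose in both were UROS, UROD, PPOX, SLC25A37, ABCB10, FLVCR1, BLVRB, TFRC, TFR2, FTH1 and ISCU, and SLC40A1 fell in both. The median log2 change over the 37 was 0.16 in KO and 0.22 in WT, against 0.01 and 0.00 over all genes tested. In bulk libraries more cells of a kind and more RNA per cell cannot be told apart. Summed TF-1 erythroid and progenitor markers, in the same libraries, were 1612 to 1732 CPM in KO Aza against 1036 to 1284 CPM in KO DMSO, and 1642 to 1670 CPM in WT Aza against 1091 to 1282 CPM in WT DMSO. Low sums of stromal markers, COL1A1 in the main, were 2.36 to 6.29 CPM in KO Aza against 0.887 to 1.75 CPM in KO DMSO, and 2.05 to 2.42 CPM in WT Aza against 0.601 to 0.713 CPM in WT DMSO. Epithelial sums were 0.158 to 0.501 CPM in KO Aza against 0 to 0.0343 CPM in KO DMSO, and 0.521 to 0.793 CPM in WT Aza against 0.0713 to 0.0751 CPM in WT DMSO, with KRT5 at 0. The part of these markers in the changes was not tested.

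The KO count at 72 h was 8 in batch 1 alone, 0 without clone A12, 6 without clone F4, 5 without the A12 Aza library, 9 without the batch 1 DMSO library of A12 and 9 with the library that failed quality control. The WT count was 9 without either Aza library, 8 without the DMSO library of A7 and 5 with the failed KO library in the model. Without the 2 WT pre-treatment libraries 18 rose and 2 fell in KO (14.8% and 11.3% of all genes) and 18 rose and 2 fell in WT (11.9% and 12.0% of all genes). ALAS2, FECH, ALAD, TMEM14C, BLVRA and FTL were then called higher, and FLVCR2 lower, in both genotypes. For the other fits of this paragraph the share of all genes called is not given, so their counts are not set against it.

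At 264 h fewer genes were called, among the members and among all genes. The median log2 change over the 37 was 0.06 in KO and 0.21 in WT, against -0.0055 and -0.0044 over all genes tested. The WT median was thus close to that at 72 h. In KO cells edgeR called 0 of 37 genes, where 0.0816% of all genes were called higher and 0.0163% lower. At an unadjusted p under 0.05 (edgeR) there were 10 of the 37 and 1188 of the 18391 genes tested. DESeq2 called 3 members, and its share of all genes is not given. In WT cells 6 rose, namely ALAD, ABCB10, ABCG2, HMOX1, TFRC and TFR2, and 0 fell (edgeR), where 0.364% of all genes rose and 0.136% fell. The TF-1 marker sum was 1523 to 1728 CPM in WT Aza against 1160.1 to 1187 CPM in WT DMSO. In KO the sum was 1262 to 1332 CPM in Aza against 1079 to 1374 CPM in DMSO. The WT difference lay mostly in the marker HBG2, at 431 and 682 CPM in Aza (A7, then C4) against 78.7 and 180 CPM in DMSO. GATA1 and KLF1 were also higher in WT Aza. CD34 was lower there (252 and 217 CPM against 314 and 282 CPM), and CSF2RB overlapped (241 and 202 CPM against 252 and 210 CPM). The part of these markers in the changes was not tested. Without the 2 WT pre-treatment libraries 5 rose and 1 fell in KO (0.366% and 0.115% of all genes): ALAS2, BLVRB, TFRC, TFR2 and SLC40A1 were higher and FLVCR2 lower. In WT 14 then rose and 1 fell (1.29% and 0.645% of all genes). The counts that follow are given without the share of all genes, which also moves with the fit. The WT count at 264 h was 1 in batch 1 alone and 0 without the clone term. It was 0 without the A7 Aza library or the C4 DMSO library, 3 without the C4 Aza library and 1 without the A7 DMSO library, and 0 with the failed KO library in the model.

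**Figure D1:**
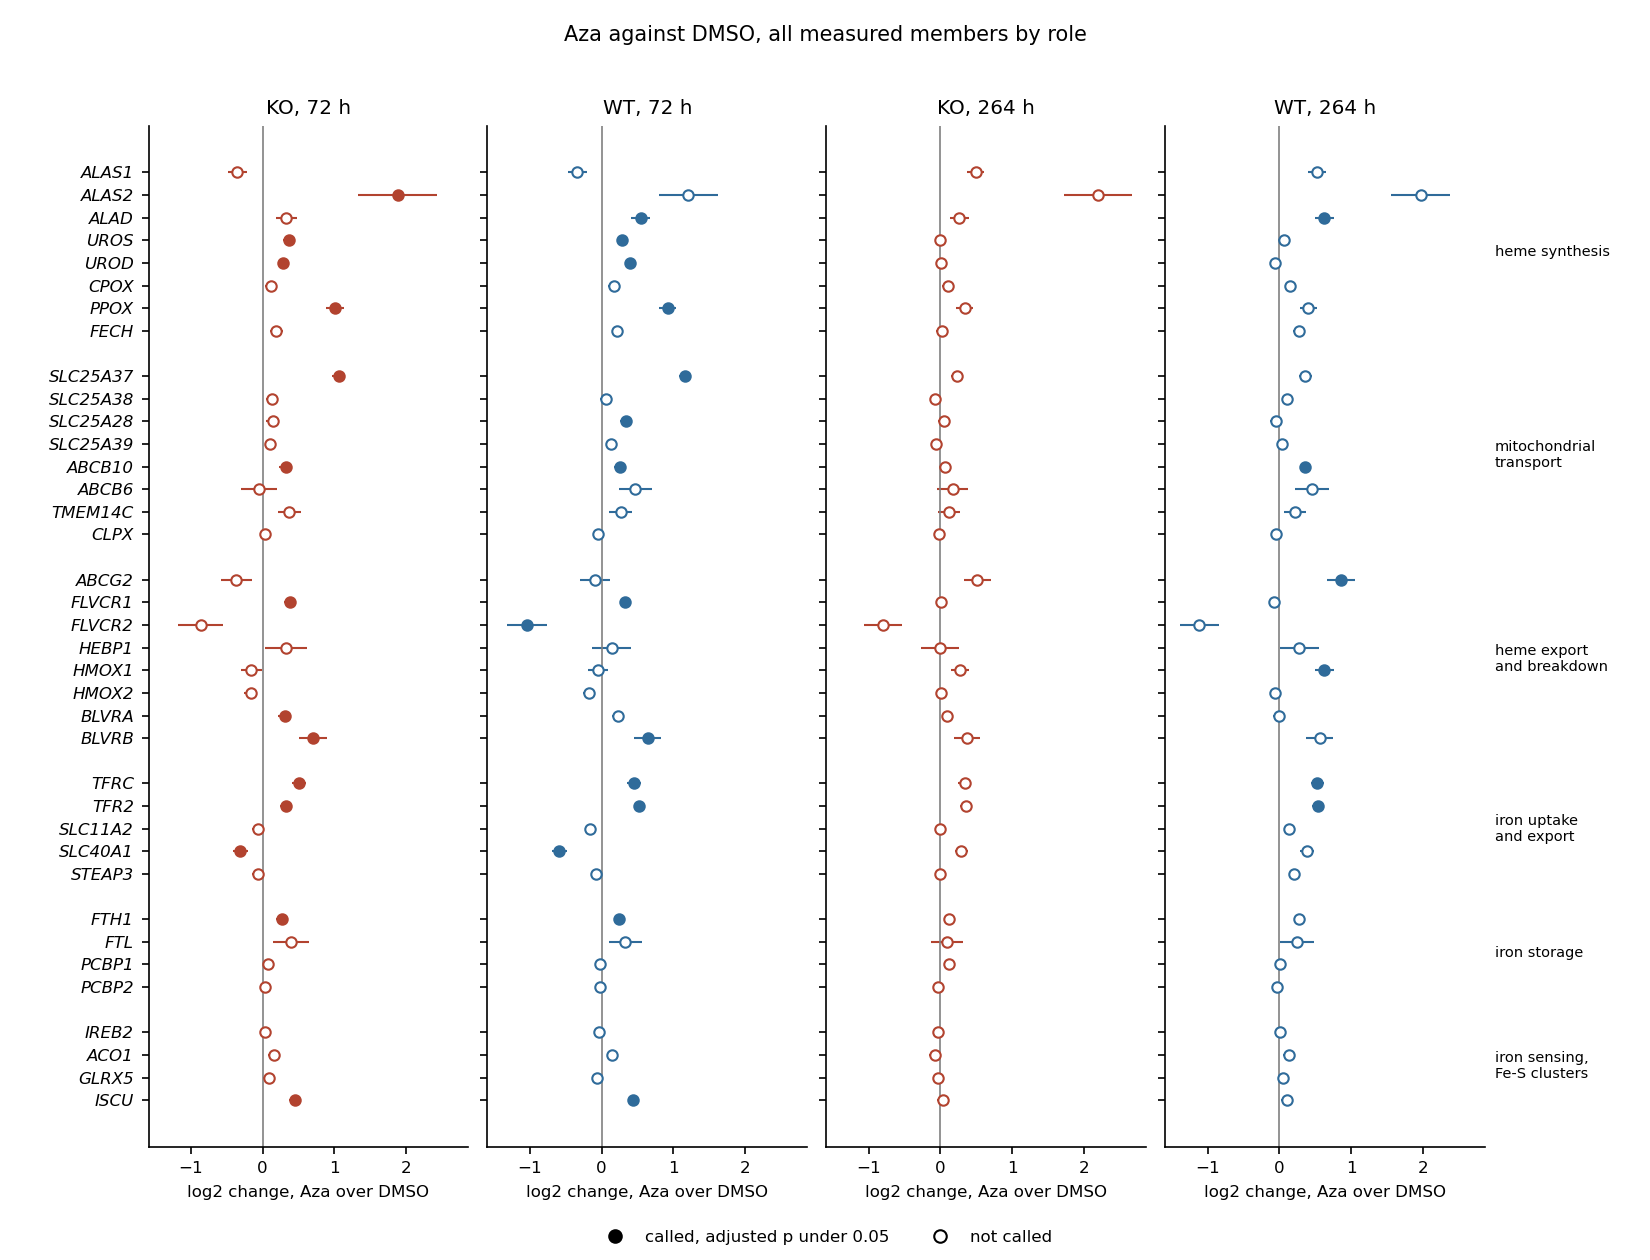
Log2 change in Aza over DMSO (x axis) for the 37 measured genes by role (y axis), in KO and WT at 72 h and 264 h. Points are estimates from the model of 25 libraries, bars are 1 SE and filled points passed an adjusted p under 0.05. At 72 h PPOX and SLC25A37 stand near 1 in both genotypes, and at 264 h ALAS2 lies furthest to the right, with its wide bars, and FLVCR2 furthest to the left.

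Among the heme synthesis enzymes ALAS2, which commits erythroid cells to heme production (chromosome X, 55035488 to 55057497, hg19), gave the largest estimates. At 72 h ALAS2 had 7.53 and 8.76 CPM in KO Aza (F4, then A12), against 1.68, 2.44 and 2.11 CPM in KO DMSO (A12 in batch 1, then F4 and A12 in batch 2). WT cells had 16.9 and 32.9 CPM in Aza (A7, then C4), against 5.41 and 16.7 CPM in DMSO. Every Aza library was thus above every DMSO library of its genotype, and the rise was called in KO (log2 1.88, SE 0.55, adjusted p = 0.0323) but missed the threshold in WT (log2 1.21, SE 0.41, adjusted p = 0.0644). In batch 1 alone the KO value was 2.13 and was not called (adjusted p = 0.135).

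At 264 h ALAS2 had 9.94 and 8.12 CPM in KO Aza, against 2.86, 1.31, 2.22 and 1.38 CPM in KO DMSO (F4 and A12 in batch 1, then in batch 2). In WT it had 34.8 and 49.8 CPM in Aza, against 8.50 and 13.3 CPM in DMSO. The groups did not overlap in either genotype, and the estimates did not pass (KO log2 2.19, SE 0.47, adjusted p = 0.214; WT log2 1.97, SE 0.41, adjusted p = 0.0713). Without the 2 WT pre-treatment libraries ALAS2 was called in all 4 comparisons, with log2 changes of 1.86 and 1.21 at 72 h and 2.18 and 1.99 at 264 h in KO and WT (adjusted p = 0.00795, 0.00929, 0.0242 and 0.00315).

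PPOX oxidises protoporphyrinogen just before iron insertion. It had 28.1 and 34.8 CPM in KO Aza at 72 h, against 15.5, 20.7 and 16.0 CPM in KO DMSO (log2 1.01, SE 0.12, adjusted p = 2.06e-06). In WT it had 38 and 35.8 CPM in Aza, against 18.9 and 20.1 CPM in DMSO (log2 0.92, SE 0.12, adjusted p = 3.01e-06). That is close to a doubling in each genotype with no overlap between groups, and the batch 1 value in KO was 1.06 (adjusted p = 8.34e-05). By 264 h PPOX stood at 18.5 and 17.3 CPM in KO Aza, against 13.6, 15.0, 15.8 and 17.0 CPM in KO DMSO, and at 26.4 and 25.5 CPM in WT Aza, against 21.1 and 18.1 CPM in WT DMSO. Groups were still apart but neither change was called (log2 0.34 and 0.40). Of the PPOX exon bases 14.0% are shared with B4GALT3, and the counting used no strand, so reads over them cannot be told apart.

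The cytosolic enzymes UROS and UROD, which close and trim the tetrapyrrole ring, rose by less. UROD had 939.6 and 933 CPM in KO Aza at 72 h, against 763, 909 and 839 CPM in KO DMSO (log2 0.28, adjusted p = 0.00144), and 993 and 961 CPM in WT Aza, against 719 and 769 CPM in WT DMSO (log2 0.39, adjusted p = 1.58e-05). UROS had 96.1 and 87.0 CPM in KO Aza, against 70.0, 83.3 and 72.4 CPM in KO DMSO (log2 0.37, adjusted p = 0.00219), and 80.0 and 89.1 CPM in WT Aza, against 64.5 and 73.9 CPM in WT DMSO (log2 0.29, adjusted p = 0.0111). Neither gene's Aza and DMSO groups overlapped at 72 h. With the failed F4 DMSO library, which held UROD at 1331 CPM, the KO estimate for UROD was -0.06. At 264 h UROD had 729.9 and 761 CPM in KO Aza, against 739, 743, 854 and 809.8 CPM in KO DMSO, and 704 and 769 CPM in WT Aza, against 761 and 768 CPM in WT DMSO. UROS had 78.8 and 75.6 CPM in KO Aza, against 78.3, 75.0, 90.1 and 83.3 CPM in KO DMSO, and 71.0 and 82.8 CPM in WT Aza, against 66.3 and 80.8 CPM in WT DMSO. All of these groups overlapped, and the estimates lay between -0.06 and 0.07.

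ALAD, which forms the pyrrole porphobilinogen, and FECH, the ferrochelatase, had separate Aza and DMSO groups in WT and overlapping ones in KO, and the calls were those of ALAD in WT. ALAD had 41.9 and 57.0 CPM in WT Aza at 72 h, against 29.7 and 37.8 CPM in WT DMSO (log2 0.55, SE 0.13, adjusted p = 0.00713), and 46.4 and 66.9 CPM at 264 h, against 30.7 and 42.6 CPM (log2 0.62, SE 0.13, adjusted p = 0.0408). In KO it had 39.2 and 27.5 CPM in Aza at 72 h, against 21.0, 34.6 and 24.1 CPM in DMSO, and 35.9 and 27.8 CPM at 264 h, against 32.2, 22.4, 31.7 and 24.4 CPM. The changes in KO were not called (log2 0.33 and 0.26). FECH had 111 and 126 CPM in WT Aza at 264 h, against 89.0 and 107 CPM in WT DMSO, and 97.7 and 106 CPM at 72 h, against 81.3 and 94.2 CPM. In KO FECH had 94.7 and 86.8 CPM in Aza at 72 h, against 75.1, 89.1 and 79.9 CPM in DMSO, and 93.0 and 82.6 CPM in Aza at 264 h, against 92, 81.7, 97.2 and 87.4 CPM in DMSO. FECH was not called in any of the 4 (log2 0.02 to 0.28), and CPOX, the enzyme before PPOX, was not called either (log2 0.10 to 0.17).

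ALAS1, the housekeeping form of the first enzyme, went the other way from ALAS2 at 72 h. It had 60.1 and 70.1 CPM in KO Aza, against 96.7, 77.5 and 102 CPM in KO DMSO, and 58.8 and 52.2 CPM in WT Aza, against 66.4 and 73.6 CPM in WT DMSO. Aza libraries were below all DMSO libraries in both genotypes, although the estimates did not pass (log2 -0.35 and -0.34, adjusted p = 0.0846 and 0.0864). At 264 h ALAS1 had 85.6 and 156 CPM in KO Aza, against 70.7, 98.6, 75.2 and 105 CPM in KO DMSO, and 120.2 and 91.3 CPM in WT Aza, against 71.4 and 75.0 CPM in WT DMSO. The WT groups were then apart in the upward direction, the KO groups overlapped, with A12 above F4 within each treatment and batch, and again neither passed (log2 0.49 and 0.53).

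**Figure D2:**
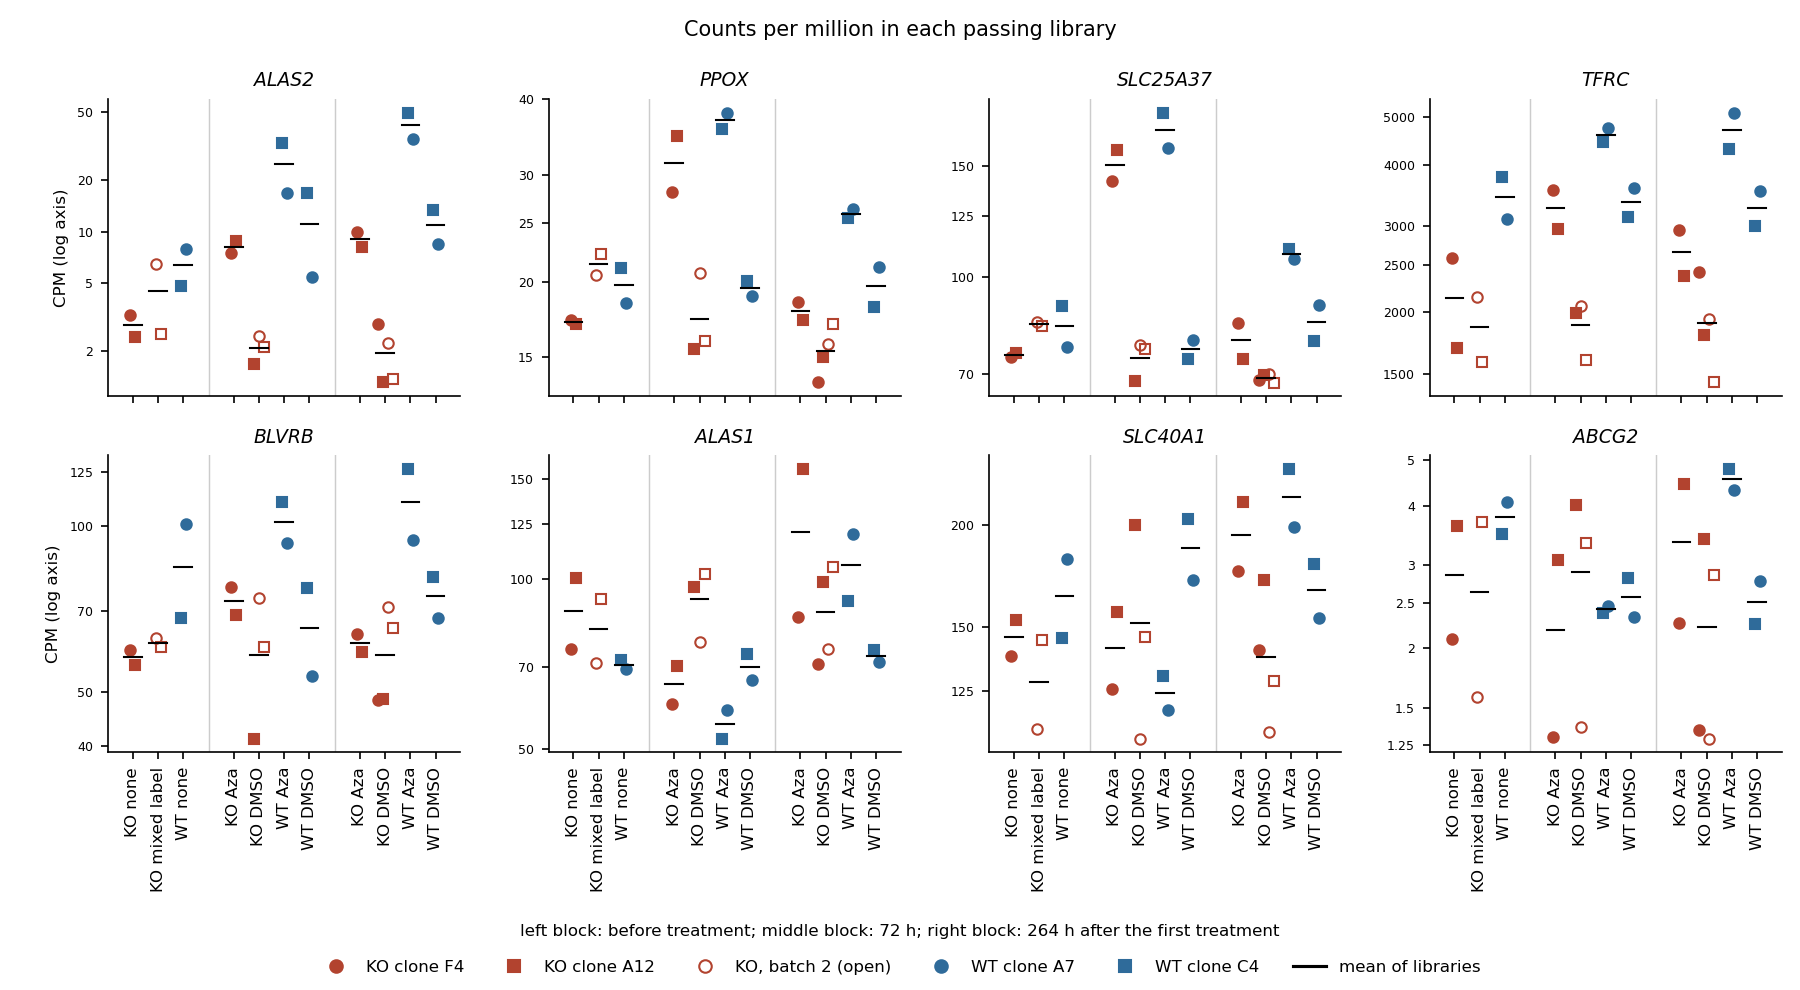
CPM on a log axis in each passing library, for 8 genes. The x axis gives the group, with the time as blocks from before treatment to 264 h; circles and squares are the clones, open symbols batch 2, and black lines group means. ALAS2 in Aza stands above DMSO in every block with Aza, SLC25A37 and PPOX separate most at 72 h, and ALAS1 and SLC40A1 lie lower in Aza than in DMSO in WT at 72 h and higher at 264 h.

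Of the mitochondrial transporters SLC25A37, which brings iron to ferrochelatase, had the smallest adjusted p of all members at 72 h. It had 142 and 159 CPM in KO Aza, against 68.4, 77.9 and 76.8 CPM in KO DMSO (log2 1.06, SE 0.09, adjusted p = 1.06e-08). In WT it had 161 and 183 CPM in Aza, against 79.4 and 73.9 CPM in DMSO (log2 1.16, SE 0.09, adjusted p = 9.94e-10). Every Aza library was about 2-fold above its DMSO group (fold 2.09 in KO and 2.24 in WT), and in batch 1 alone the KO value was 1.14 (adjusted p = 5.51e-05). At 264 h it had 84.5 and 73.9 CPM in KO Aza, against 68.5, 69.8, 70.0 and 67.9 CPM in KO DMSO, and 107 and 111 CPM in WT Aza, against 90.3 and 78.9 CPM in WT DMSO. Groups did not overlap and the changes were not called (log2 0.23 and 0.36, adjusted p = 0.598 and 0.0567). Another row of the annotation shares 34.6% of its exon bases.

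SLC25A28 (mitoferrin-2), the importer of other tissues, moved less. It had 27.1 and 26.2 CPM in WT Aza at 72 h, against 21.5 and 20.7 CPM in WT DMSO (log2 0.34, SE 0.09, adjusted p = 0.00617), and 28.1 and 28.6 CPM in KO Aza, against 25.6, 24.7 and 27.9 CPM in KO DMSO (log2 0.14, not called). At 264 h it had 23.2 and 21.1 CPM in KO Aza, against 21.6, 21.9, 20.7 and 22.1 CPM in KO DMSO, and 23.0 and 23.1 CPM in WT Aza, against 23.4 and 24.2 CPM in WT DMSO. These estimates were 0.05 in KO and -0.04 in WT and were not called. ABCB10, which stabilises SLC25A37 in the inner membrane, had 53.0 and 53.4 CPM in KO Aza at 72 h, against 44.0, 41.8 and 38.3 CPM in KO DMSO (log2 0.32, SE 0.09, adjusted p = 0.0103), and 73.9 and 75.3 CPM in WT Aza, against 61.5 and 63.5 CPM in WT DMSO (log2 0.25, SE 0.08, adjusted p = 0.0311). At 264 h ABCB10 had 76.8 and 76.0 CPM in WT Aza, against 59.1 and 59.7 CPM in WT DMSO (log2 0.36, SE 0.08, adjusted p = 0.0421), and 51.3 and 45.4 CPM in KO Aza, against 46.0, 43.4, 49.4 and 44.0 CPM in KO DMSO, which overlapped. The other 5, TMEM14C (protoporphyrinogen import), SLC25A38 (glycine import), SLC25A39, ABCB6 and CLPX (the chaperone that activates ALAS), were not called in any of the 4 comparisons, with log2 values from -0.07 to 0.47.

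Among genes of heme export and breakdown BLVRB, a biliverdin and flavin reductase, and FLVCR1, a plasma membrane heme exporter, rose at 72 h. BLVRB had 77.4 and 69.0 CPM in KO Aza, against 41.2, 74.0 and 60.3 CPM in KO DMSO (log2 0.70, SE 0.20, adjusted p = 0.0285), and 93.1 and 110.4 CPM in WT Aza, against 53.5 and 77.2 CPM in WT DMSO (log2 0.65, SE 0.19, adjusted p = 0.0318). The KO groups overlapped, the batch 2 DMSO library of F4 being above the A12 Aza library, and the batch 1 value in KO was 0.78 (adjusted p = 0.161). FLVCR1 had 32.9 and 33.0 CPM in KO Aza, against 25.0, 23.5 and 24.3 CPM in KO DMSO (log2 0.38, adjusted p = 0.00208), and 30.2 and 31.6 CPM in WT Aza, against 24.0 and 25.0 CPM in WT DMSO (log2 0.33, adjusted p = 0.00507). At 264 h BLVRB had 94.3 and 127 CPM in WT Aza, against 68.2 and 80.8 CPM in WT DMSO, with no overlap and no call (log2 0.56, adjusted p = 0.368), and 63.8 and 59.1 CPM in KO Aza, against 48.4, 48.7, 71.3 and 65.4 CPM in KO DMSO. FLVCR1 at 264 h had 30.4 and 27.4 CPM in KO Aza, against 29.2, 27.8, 26.4 and 28.2 CPM in KO DMSO, and 26.3 and 28.5 CPM in WT Aza, against 29.1 and 28.4 CPM in WT DMSO, with overlap in both (log2 0.01 and -0.07). BLVRA, the main biliverdin reductase, rose in KO at 72 h (log2 0.31, adjusted p = 0.0168), and HMOX2, the constitutive heme oxygenase, and HEBP1, a heme-binding protein, were not called.

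FLVCR2, a relative of FLVCR1, was the one gene of the set with negative estimates near 1 at both times. It had 4.26 and 2.07 CPM in KO Aza at 72 h, against 4.57, 6.37 and 3.90 CPM in KO DMSO, and 5.89 and 3.05 CPM in WT Aza, against 12.6 and 6.02 CPM in WT DMSO. At 264 h it had 5.85 and 2.78 CPM in KO Aza, against 9.16, 4.93, 10.8 and 4.66 CPM in KO DMSO, and 5.41 and 3.44 CPM in WT Aza, against 11.9 and 7.35 CPM in WT DMSO. The groups were apart in WT and overlapped in KO, where the clones differ, and within each clone the Aza library was below every DMSO library of the same time. The call was made in WT at 72 h (log2 -1.04, SE 0.28, adjusted p = 0.0136) but not in the other 3 (log2 -0.86, -0.80 and -1.11). FLVCR2 shares 26.6% of its exon bases with FLVCR2-AS1 and TTLL5.

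ABCG2 and HMOX1, the inducible heme oxygenase, were called at the later time in WT. ABCG2 had 4.33 and 4.80 CPM in WT Aza at 264 h, against 2.77 and 2.25 CPM in WT DMSO (log2 0.86, SE 0.20, adjusted p = 0.0442), and 2.26 and 4.46 CPM in KO Aza, against 1.35, 3.40, 1.29 and 2.86 CPM in KO DMSO (log2 0.51, adjusted p = 0.621). HMOX1 had 13.2 and 12.8 CPM in WT Aza at 264 h, against 8.47 and 8.35 CPM in WT DMSO (log2 0.63, SE 0.14, adjusted p = 0.032), and 8.55 and 13.1 CPM in KO Aza, against 7.36, 10.6, 7.87 and 13.6 CPM in KO DMSO (log2 0.27, adjusted p = 0.767). The KO groups overlapped for both genes at 264 h. At 72 h neither was called: ABCG2 had 1.30 and 3.08 CPM in KO Aza, against 4.02, 1.36 and 3.35 CPM in KO DMSO, and 2.46 and 2.38 CPM in WT Aza, against 2.33 and 2.81 CPM in WT DMSO. HMOX1 had 8.43 and 9.73 CPM in KO Aza, against 11.7, 10.6 and 13.8 CPM in KO DMSO, and 9.65 and 7.45 CPM in WT Aza, against 8.45 and 9.19 CPM in WT DMSO.

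On the uptake side both transferrin receptors rose. TFRC, which takes up transferrin-bound iron (chromosome 3, 195754054 to 195809060, hg19), had 3556 and 2964 CPM in KO Aza at 72 h, against 1991, 2057 and 1603 CPM in KO DMSO (log2 0.51, SE 0.10, adjusted p = 0.00133), and 4744 and 4446 CPM in WT Aza, against 3579.8 and 3136 CPM in WT DMSO (log2 0.45, SE 0.10, adjusted p = 0.00226). Neither pair of groups overlapped, and clone F4 stood above A12 within each KO treatment and batch. At 264 h TFRC had 5112 and 4314 CPM in WT Aza, against 3529 and 2997 CPM in WT DMSO (log2 0.53, SE 0.10, adjusted p = 0.0123), and 2948 and 2375 CPM in KO Aza, against 2421, 1803, 1935 and 1439 CPM in KO DMSO (log2 0.34, adjusted p = 0.312). TFR2, the transferrin receptor that also senses iron and binds the erythropoietin receptor, had 62.7 and 89.3 CPM in KO Aza at 72 h, against 63.6, 58.3 and 67.6 CPM in KO DMSO (log2 0.33, SE 0.08, adjusted p = 0.00588), and 95.4 and 99.1 CPM in WT Aza, against 62.7 and 72.4 CPM in WT DMSO (log2 0.53, SE 0.08, adjusted p = 2.88e-05). The KO groups overlapped there. At 264 h TFR2 had 115 and 113 CPM in WT Aza, against 81.6 and 75.3 CPM in WT DMSO (log2 0.54, SE 0.08, adjusted p = 0.000898), and 66.7 and 78.7 CPM in KO Aza, against 51.3, 65.4, 51.1 and 64.8 CPM in KO DMSO (log2 0.35, adjusted p = 0.0753). At that time the Aza and DMSO groups were apart in WT for both receptors, and in KO they were apart for TFR2 and overlapped for TFRC.

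SLC40A1, the iron exporter ferroportin, fell at 72 h. It had 119 and 131 CPM in WT Aza, against 171 and 203 CPM in WT DMSO (log2 -0.59, SE 0.10, adjusted p = 0.000336), with no overlap. In KO it had 126 and 156 CPM in Aza, against 199.8, 109 and 146 CPM in DMSO (log2 -0.31, SE 0.11, adjusted p = 0.0452). The KO groups overlapped, the batch 2 DMSO libraries being below the batch 1 one, and in batch 1 alone the value was -0.38 and was not called (adjusted p = 0.134). At 264 h it had 176 and 213 CPM in KO Aza, against 141, 171, 111 and 128 CPM in KO DMSO, and 199 and 234 CPM in WT Aza, against 154 and 179 CPM in WT DMSO. Aza libraries were then above all DMSO libraries of their genotype, without a call (log2 0.29 and 0.38, adjusted p = 0.543 and 0.118). SLC11A2, the endosomal iron exporter DMT1, and the ferrireductase STEAP3 were not called (log2 -0.16 to 0.21).

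Of the storage genes FTH1 rose at 72 h in both genotypes by a small amount. It had 368 and 340.0 CPM in KO Aza, against 273, 475 and 448 CPM in KO DMSO (log2 0.27, SE 0.08, adjusted p = 0.0194), and 353 and 378 CPM in WT Aza, against 278 and 339 CPM in WT DMSO (log2 0.25, SE 0.08, adjusted p = 0.0225). The KO groups overlapped, FTH1 being higher in the batch 2 DMSO libraries than in the Aza libraries of batch 1, and the batch 1 value was 0.35 (adjusted p = 0.0199). At 264 h FTH1 had 337 and 343 CPM in KO Aza, against 338, 297, 517 and 436 CPM in KO DMSO, and 405 and 396 CPM in WT Aza, against 321 and 339.7 CPM in WT DMSO. The WT groups were apart and the KO groups overlapped, and FTH1 was not called (log2 0.12 and 0.28).

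FTL had 1595 and 2037 CPM in KO Aza at 72 h, against 1487, 1684 and 2048 CPM in KO DMSO, and 1739 and 1157 CPM in WT Aza, against 1306 and 978 CPM in WT DMSO. The groups overlapped in both genotypes, and in WT A7 stood above C4 within each treatment (log2 0.40 and 0.33, not called). At 264 h it had 1354 and 1685 CPM in KO Aza, against 1296, 1570.1, 1739 and 2046 CPM in KO DMSO, and 1712 and 1088 CPM in WT Aza, against 1414 and 939 CPM in WT DMSO (log2 0.09 and 0.25). FTL and FTH1 have near-identical pseudogenes, and 62.4% of FTH1 exon bases are shared with BEST1, so their counts are uncertain. The iron chaperones PCBP1 and PCBP2, which load ferritin, were not called in any of the 4 (log2 -0.04 to 0.12).

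ISCU, the scaffold on which iron-sulfur clusters are built, rose at 72 h. It had 38.1 and 42.3 CPM in KO Aza, against 32.6, 32.8 and 37.6 CPM in KO DMSO (log2 0.45, SE 0.08, adjusted p = 0.000215), and 35.6 and 40.4 CPM in WT Aza, against 27.5 and 28.2 CPM in WT DMSO (log2 0.44, SE 0.08, adjusted p = 0.000177). Groups did not overlap in either genotype. At 264 h ISCU had 28.3 and 31.2 CPM in KO Aza, against 26.3, 30.5, 34.5 and 38.7 CPM in KO DMSO, and 28 and 30.9 CPM in WT Aza, against 27.6 and 27.2 CPM in WT DMSO (log2 0.03 and 0.10, not called). The iron regulatory proteins ACO1 and IREB2, and GLRX5, a carrier of iron-sulfur clusters, were not called in any of the 4 (log2 -0.08 to 0.16).

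The Aza change at 264 h was then set against that at 72 h within each genotype, by a contrast of the 2 changes. In KO 3 of 37 genes were higher and 6 lower at 264 h, where 5.48% of all genes were higher and 7.67% lower. In WT 4 were higher and 3 lower, where 4.0% of all genes were higher and 2.83% lower. ALAS1, SLC40A1 and ABCG2 were called higher in both genotypes, and UROD, SLC25A37 and FLVCR1 lower in both. The ALAS1 change was larger at 264 h than at 72 h by 0.84 in KO and 0.86 in WT (SE 0.16 and 0.18, adjusted p = 0.00254 and 0.00794). For SLC40A1 the differences were 0.60 in KO and 0.97 in WT (SE 0.13 and 0.14, adjusted p = 0.00339 and 0.00022). For both genes the estimates were negative at 72 h and positive at 264 h in each genotype. Of these estimates only those of SLC40A1 at 72 h were called, so a change of sign is not established.

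For SLC25A37 the difference was -0.83 in KO (SE 0.11, adjusted p = 1.28e-05) and -0.80 in WT (SE 0.12, adjusted p = 0.000129), that is, a smaller change at 264 h in both. PPOX, UROS and ISCU were called lower at 264 h in KO (log2 -0.67, -0.37 and -0.42) and had the same sign without a call in WT (log2 -0.52, -0.22 and -0.34). HMOX1 was called higher in WT (log2 0.68, adjusted p = 0.0356) and stood at 0.43 in KO. For ALAS2, TFRC and TFR2 the difference between times was not called, at 0.31 ± 0.63, -0.17 ± 0.12 and 0.02 ± 0.10 in KO and 0.76 ± 0.57, 0.08 ± 0.13 and 0.01 ± 0.11 in WT (estimate ± SE). With no filter on low counts ALAS2 was called higher in WT.

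Shares of all genes are given below for the fits without the WT pre-treatment libraries and not for the others. The KO count of 9 was 12 without the 2 WT pre-treatment libraries (3 higher and 9 lower, where 8.02% and 10.7% of all genes were). It was 3 in batch 1 alone, where UROD, PPOX and SLC25A37 were called, 5 without the A12 Aza library of 72 h, 3 without F4, 0 without A12 and 3 with the failed library. The WT count of 7 was 12 without the WT pre-treatment libraries (6 higher and 6 lower, where 6.41% and 4.68% of all genes were) and 2 with the failed KO library. It was 3 without the early Aza or early DMSO library of C4 or the late DMSO library of A7, and 4 without the early DMSO library of A7 or either late Aza library. Without all A7 libraries it was 3 and without all C4 libraries 4.

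**Figure D3:**
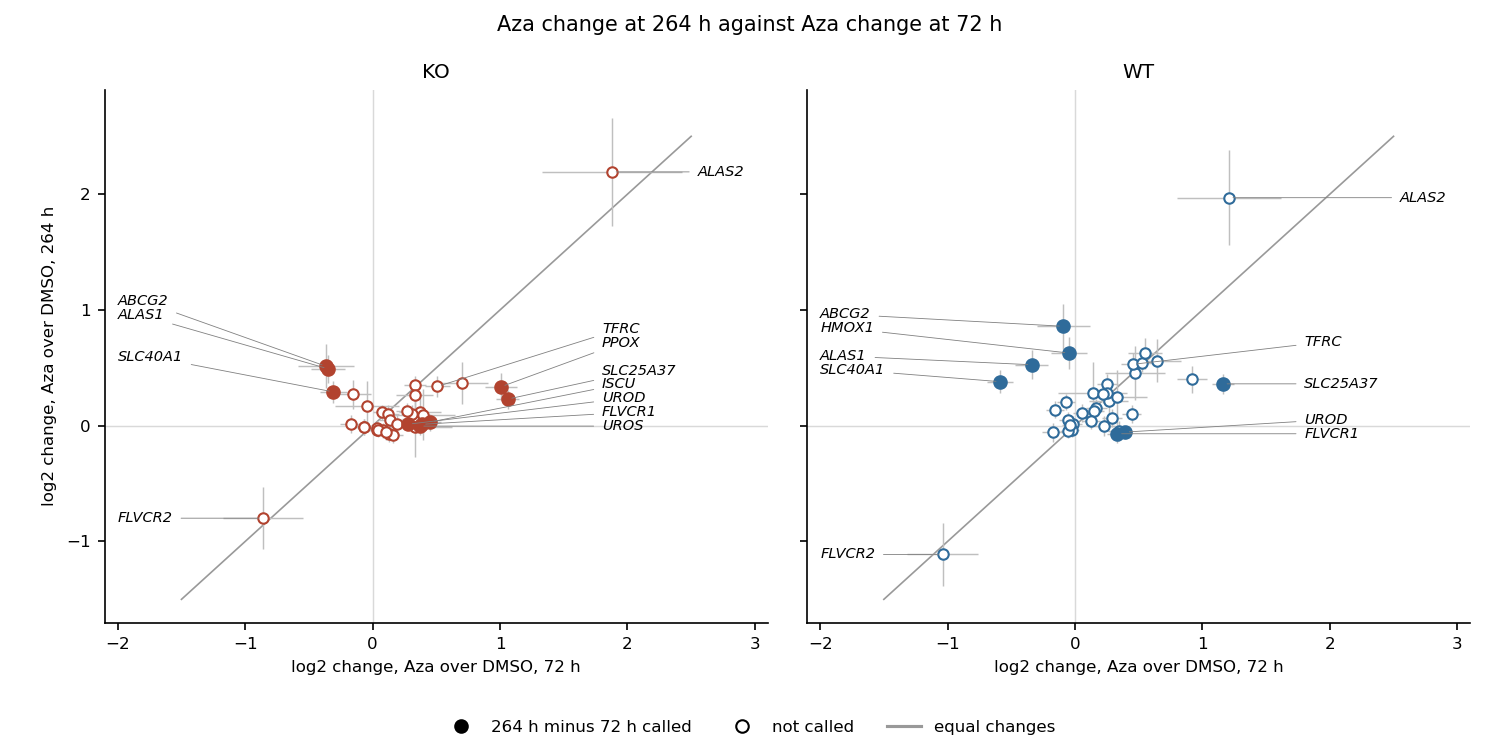
Log2 change in Aza over DMSO at 264 h (y axis) against that at 72 h (x axis) for the 37 genes, in KO and WT. Bars are 1 SE, the diagonal marks equal changes, and filled points are genes whose 2 changes differed at an adjusted p under 0.05. ALAS1, SLC40A1 and ABCG2 lie above the diagonal and SLC25A37, UROD and FLVCR1 below it in both panels.

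Whether the Aza change depended on genotype was tested by an interaction at each time. At 72 h and at 264 h edgeR called 0 of 37 genes, where 0.0% of all genes were called at either time, and DESeq2 also called 0. At an unadjusted p under 0.05 (edgeR) there were 0 members at 72 h and 3 at 264 h, against 631 and 571 of the 18391 genes tested. The differences between the KO and WT changes ran from -0.52 (ABCB6, SE 0.34) to 0.67 (ALAS2, SE 0.69) at 72 h. At 264 h they ran from -0.36 (ALAD, SE 0.18) to 0.31 (FLVCR2, SE 0.38). These p-values do not show that the changes were alike in both genotypes.

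KO was then compared with WT for the same genes. With 2 clones per genotype, loss of TET2 and other differences between the clones cannot be told apart. The counts of each clone were summed over the 4 conditions of batch 1 that every clone has, so that 2 KO clones were set against 2 WT clones. At an unadjusted p under 0.05 (edgeR) there were 12 members and 3126 of 21216 genes. Of 37 genes 4 were called lower in KO and 0 higher, where 0.679% of all genes were lower and 0.914% higher. The 4 were ALAS2 (log2 -1.93, SE 0.18, adjusted p = 0.0236), BLVRB (log2 -0.62, SE 0.06, adjusted p = 0.0221), ABCB10 (log2 -0.48, SE 0.07, adjusted p = 0.0363) and TMEM14C (log2 -0.32, SE 0.05, adjusted p = 0.0474). The median over the 37 was -0.09 and 29 of them lay below 0, against a median of 0.00 over all genes tested. With the clone labels of the 2 WT pre-treatment libraries exchanged before summing, 0 members and 0.0236% of all genes were called, with a member median of -0.09. With the pre-treatment condition left out of every sum, 0 members were called (edgeR, median -0.10), where 0.0399% of all genes were higher and 0.015% lower. For sums with a clone left out the share of all genes is not given. Without A7 or without C4 the count was also 0, and without F4 or A12, which leaves 1 KO sum, it was 16 and 9.

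ALAS2 had 3.26 and 2.42 CPM in KO before treatment, against 7.94 and 4.82 CPM in WT. At 264 h the batch 1 DMSO libraries held 2.86 and 1.31 CPM in KO, against 8.50 and 13.3 CPM for WT. With Aza the KO values were 7.53 and 8.76 CPM at 72 h, against 16.9 and 32.9 CPM in WT, and 9.94 and 8.12 CPM at 264 h, against 34.8 and 49.8 CPM in WT. For ALAS2 both KO libraries were below both WT libraries in each of these 4 conditions, and the KO libraries in Aza at 264 h overlapped the WT libraries in DMSO of that time. The single early KO DMSO library of batch 1, of A12, had 1.68 CPM, against 5.41 and 16.7 CPM in WT. Within WT, C4 was above A7 in all later conditions and below it before treatment.

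ABCB10 had 60.0 and 50.1 CPM in KO before treatment, against 78.8 and 65.7 CPM in WT, and 51.3 and 45.4 CPM in KO in Aza at 264 h, against 76.8 and 76.0 CPM in WT. BLVRB had 59.6 and 56.1 CPM in KO before treatment, against 101 and 68.1 CPM in WT, and 63.8 and 59.1 CPM in KO in Aza at 264 h, against 94.3 and 127 CPM in WT. TMEM14C, which carries protoporphyrinogen across the inner membrane, had 178 and 149.5 CPM in KO before treatment, against 226 and 165 CPM in WT, and 132 and 131 CPM in KO in Aza at 264 h, against 156 and 189 CPM in WT. For ABCB10 and BLVRB both KO libraries were below both WT libraries in these conditions, and for TMEM14C this held in Aza at 264 h but not before treatment.

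Fitted within single conditions, 2 libraries against 2, KO against WT gave 0 called members in each of 4 conditions by edgeR. Shares of all genes are given for edgeR with all libraries of a condition, and not for DESeq2 or with a clone left out. Before treatment 0.0543% of all genes were called, with 1 member called by DESeq2. At an unadjusted p under 0.05 (edgeR) there were 5 members and 1322 of 16560 genes. In the DMSO libraries of 264 h 0.208% were called (8 members and 1827 of 16333 genes unadjusted, 5 members by DESeq2). In the Aza libraries of 72 h 0.19% were called (6 members and 1566 of 16322 genes unadjusted, 4 members by DESeq2). In those of 264 h 0.0488% were called (11 members and 1909 of 16380 genes unadjusted, 8 members by DESeq2). DESeq2 called only lower genes in KO there, TFRC in all 4 conditions and ALAS2, ABCB10 and BLVRB in the 3 after treatment. Without F4 edgeR called 2 members before treatment, 2 in early Aza cells (72 h), 3 in late DMSO cells and 5 in late Aza cells (264 h). It called 2 in late Aza cells without A12, and 1 in Aza cells of either time without A7. ALAS2 had a log2 value of -1.15 before treatment and -1.61 in early Aza cells, and of -2.22 and -2.35 in late Aza and DMSO cells.

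Several members differed between clones of a genotype or lay in segments where the neighbours differed as well. TFRC was lower in KO over clone sums (log2 -0.65, adjusted p = 0.108) without a call, and A12 lay below F4 by 0.41 on the log2 scale over 7 pairs while its neighbours within 5 Mb lay at -0.31. HEBP1 was higher in C4 than in A7 by 0.60 over the 4 pairs taken after treatment began, and its neighbours by 0.49. The WT pre-treatment pair was left out of these, and there HEBP1 had 30.5 CPM in A7 and 18.3 CPM in C4. ABCG2 was higher in A12 than in F4 by 1.11, and its neighbours by 0.59. For ALAS2, ABCB10, TMEM14C and BLVRB the neighbours' KO minus WT difference lay between -0.06 and 0.00. The neighbours of TFRC lay at -0.21 (TFRC itself at -0.66), those of HEBP1 at -0.16 (-0.33) and those of ABCG2 at 0.41 (-0.22). Summed T cell markers, CD3D in the main, also moved with genotype, at 9.79 to 61.5 CPM over KO groups, against 0.670 to 4.15 CPM over WT groups, with 1 of 3 T cell markers averaging 1 CPM. Hepatocyte markers, ALB in the main, were 1.46 to 6.97 CPM over KO groups, against 0.255 to 1.76 CPM over WT groups. The part of these markers in the differences was not tested.

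**Figure D4:**
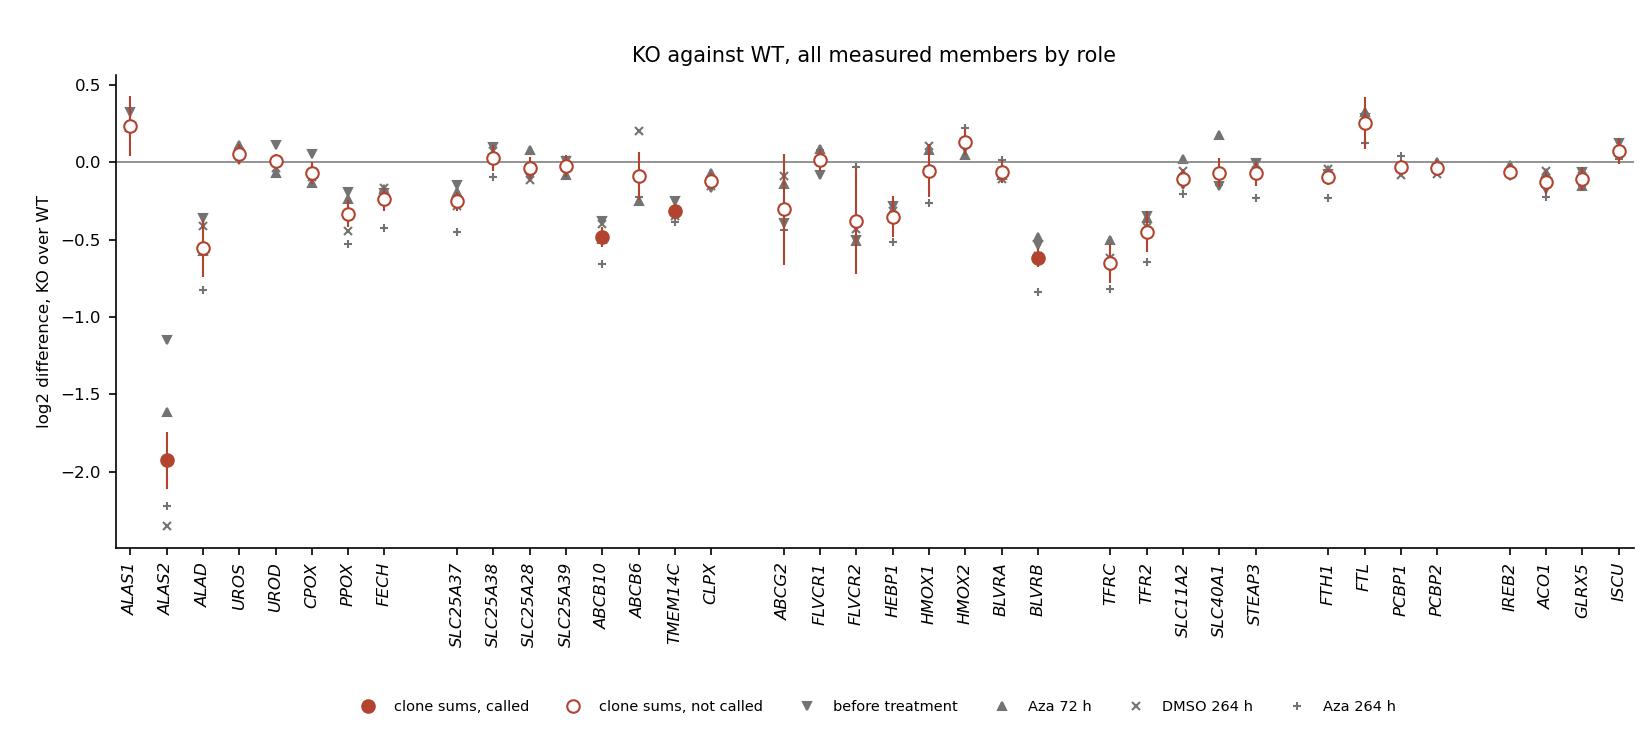
Log2 difference of KO over WT (y axis) for the 37 genes by role (x axis). Red points are the fits over clone sums with 1 SE, filled where called, and grey marks are the estimates in 4 single conditions of batch 1. ALAS2 lies lowest in every condition, and ABCB10, TMEM14C, BLVRB, TFRC and TFR2 are among the genes below 0 in all of them. In each single condition 25 to 28 of the 37 genes lie below 0.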

How the data were processed

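Members and lists were chosen with earlier results of these data known. RNA was sequenced from libraries of a stranded mRNA kit. The authors deposited raw read counts per gene; per the file headers they were made with featureCounts 1.6.2 over exons of GENCODE release 19 with no strand option, and the submitters' processing notes name cutadapt, FastQC, STAR 2.6.1d, DESeq2 and hg19 (GRCh37). Gene symbols came from a table of current names (51996 IDs).

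From these counts CPM (TMM library sizes) and TPM (exon lengths) were computed with edgeR 4.0.16 in R 4.3.3. Differences were tested with edgeR's robust quasi-likelihood test and called at a Benjamini-Hochberg adjusted p under 0.05 over all genes tested. Aza comparisons, interactions and time contrasts came from a model of 25 libraries (18391 genes) with group, clone and batch terms. KO against WT was fitted on 2 batch 1 libraries per genotype and on sums of each clone's counts. For KO against WT the error is the spread of 2 clones per genotype; for the other comparisons it is what remains after each clone's level is removed, which may be technical. Clones are the pairing, since a label names 1 cell line throughout; same-clone deviations correlated at 0.55 to 0.611 in KO. Replicates were distinct libraries: their chi-square was never below 10.99 times its degrees of freedom in 18 pairs. DESeq2 1.42.0, RLE scaling, no filter, no clone term, batch 1 alone, the failed library, and left-out or relabelled libraries were alternatives. The test was checked on simulated counts.

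Values per library are given for members called with an absolute log2 change of at least 0.5 in an Aza comparison, those called in any other comparison, and 10 members listed by name. Errors in the text are 1 SE of the fit or the SD over libraries; the floor of 3 counts covers counting error only.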

Additional observations from a re-analysis of the deposited data

Results flagged for a closer look

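For 16 values the Aza change at 264 h differed from that at 72 h by a test of the difference itself. In KO the change was larger at 264 h for ALAS1 (0.84), ABCG2 (0.88) and SLC40A1 (0.60), and smaller for SLC25A37 (-0.83), PPOX (-0.67), ISCU (-0.42), UROS (-0.37), FLVCR1 (-0.37) and UROD (-0.27), all on the log2 scale. In WT it was larger for SLC40A1 (0.97), ABCG2 (0.95), ALAS1 (0.86) and HMOX1 (0.68), and smaller for SLC25A37 (-0.80), UROD (-0.45) and FLVCR1 (-0.40). The values of both times share no libraries within a genotype.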

How the results depend on the processing

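Counts of called members are given here. The share of all genes called also moves with the fit. Without the WT pre-treatment libraries, for example, the share called higher in WT at 264 h went from 0.364% to 1.29%. For most alternatives it is not given, so these counts show how calls depend on the fit and are no result about the members. In KO at 72 h (14) they were 8 without the replicate block (no clone term), 8 in batch 1 only, 9 with the failed library and 0 to 13 with 1 library or clone left out. In WT at 72 h (15) they were 9 without the block, 5 with the failed library and 8 to 15 with 1 left out. In KO at 264 h (0) they were 3 with DESeq2, 7 with no filter, 6 without the WT pre-treatment libraries, 6 with their labels exchanged, 7 in a fit of the compared libraries only, and 0 to 1 with 1 left out. In WT at 264 h (6) these were 10, 14, 15, 15 and 19, with 0 without the block, 1 in batch 1 only, 0 with the failed library and 0 to 7 with 1 left out. For 264 h minus 72 h in KO (9) they were 3 without the block, in batch 1 only and with the failed library, and 0 to 10 with 1 left out. In WT (7) they were 2 without the block, 2 with the failed library, 12 without the WT pre-treatment libraries, 14 in a fit of the compared libraries only and 3 to 5 with 1 left out. Both interactions were at 0 under each alternative.

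KO against WT before treatment (0) gave 1 with DESeq2, 3 with no filter and 0 to 2 with 1 clone left out. DMSO at 264 h (0) gave 5, 7 and 0 to 3, Aza at 72 h (0) gave 4, 7 and 0 to 2, and Aza at 264 h (0) gave 8, 11 and 0 to 5. Clone sums (4) gave 7 with DESeq2, 0 with the WT pre-treatment labels exchanged, 0 with the pre-treatment condition left out of the sums and 0 to 16 with 1 clone left out. The exchange of labels and these shorter sums were chosen after seeing the data. UROD in KO at 72 h reversed with the failed library, to -0.0571. Of 1753 alternative values of named members, 1362 kept direction and side of the threshold, 265 lost the call, 125 gained it and 1 reversed. The cause of these shifts was not tested. Leaving out a library or clone can leave 1 sample in an arm, whose spread is then assumed to be that of the others. Genes at a few CPM, such as ABCG2 and FLVCR2, rest on few reads.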

Other observations

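Outside the 37 genes, 45 further genes of iron and heme metabolism were listed for the same reading, with 39 passing the filter on low counts in the model of 25 libraries. They comprise 14 genes of iron-sulfur cluster assembly, 14 of heme traffic, use and sensing, and 17 of iron traffic and regulation. At 72 h Aza raised 9 and lowered 2 in KO and raised 7 and lowered 5 in WT, where 11.6% of all genes rose and 8.47% fell in KO and 9.26% rose and 9.04% fell in WT, with medians of 0.05 and -0.005 (log2), and at 264 h the medians were -0.02 in KO and 0.02 in WT.

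ERFE, the erythroblast hormone erythroferrone that lowers hepcidin, was the one with a change of at least 2-fold. It had 13.6 and 14.9 CPM in KO Aza at 72 h, against 5.63, 10.1 and 5.86 CPM in KO DMSO (log2 1.24, SE 0.20, adjusted p = 0.000113), and 23.3 and 25.1 CPM in WT Aza, against 10.8 and 12.3 CPM in WT DMSO (log2 1.07, SE 0.18, adjusted p = 0.000176). All Aza libraries of 72 h were above all DMSO libraries of their genotype and time. At 264 h ERFE had 8.15 and 5.56 CPM in KO Aza, against 6.99, 4.45, 8.81 and 7.00 CPM in KO DMSO, and 12.9 and 15.0 CPM in WT Aza, against 9.56 and 12.5 CPM in WT DMSO. The KO groups overlapped, and the change was smaller at 264 h than at 72 h in KO (log2 -1.02, adjusted p = 0.00635) and not called so in WT (log2 -0.73, adjusted p = 0.0898). Over clone sums ERFE was lower in KO (log2 -0.81, SE 0.11, adjusted p = 0.0332) and ATP5IF1, the inhibitor of the mitochondrial ATP synthase, higher (log2 0.34, SE 0.05, adjusted p = 0.0461), where 0.679% of all genes were lower and 0.914% higher. Neither was called with the WT pre-treatment labels exchanged (adjusted p = 0.126 for ERFE and 0.117 for ATP5IF1; 0.0236% of all genes called) or with the pre-treatment condition left out (0.0882 and 0.123). BACH1, a repressor released by heme, rose at 72 h (log2 0.42 in KO and 0.35 in WT), as did the heme transporter SLC48A1 (0.51 and 0.45), the heme-sensing kinase EIF2AK1 (0.19 and 0.16) and FDXR, the reductase that supplies electrons for cluster assembly (0.42 and 0.49).

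SLC39A14, a transporter of iron not bound to transferrin, fell at 72 h (-0.38 in KO and -0.57 in WT), and so did EXOC6, an exocyst subunit needed for transferrin recycling in mouse red cell precursors (-0.32 and -0.52). NFU1 and LYRM4, both of cluster assembly, fell in WT (-0.41 and -0.32). Among the 45 genes SLC39A8 and SLC22A17 rose in both genotypes at 72 h, LCN2 and FAM210B in KO, and ATP5IF1 fell in WT.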
